A study of Homo sapiens with 12 samples.

Results

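The genes described here carry cells through G2 and mitosis: 58 genes of the spindle, the kinetochore, the spindle checkpoint and cytokinesis. These genes were listed by name for their function, but earlier results of these data were known when they were chosen. They were followed by RNA-seq in MDA-MB-468, SUM149PT and HCC38, which are 3 breast cancer lines of the basal kind, after the nuclear lncRNA RP11-19E11.1 was knocked down. All 58 were found among the 63677 genes in the count tables, and all 58 passed the filter on low counts with 21325 genes in total. Knock-down cells (KD) had received a pair of antisense locked nucleic acid oligonucleotides (LNA1 and LNA2) together, and control cells a non-targeting oligonucleotide (LNA NS), at 50 nM. Both were added as the cells were seeded, the medium was replaced after 6 h, and poly-A RNA was taken at 24 h. Each line gave 2 LNA NS and 2 KD libraries, 12 in all, and the sources do not say whether a group's libraries came from separate cultures, although the study states in general terms that its experiments were repeated. Thus p-values measure the spread between these libraries, which may be technical. Every library came from cells that had been transfected, and the 2 KD oligonucleotides were not tested apart. The lines had not been authenticated, by the study's reporting form.

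The depth of the libraries ran from 32187835 to 56191152 counts in genes. The gene taken to be the lncRNA was LINC01956 (ENSG00000258910, GRCh37 chromosome 2 from 119524541 to 119592686, minus strand), although no table used here pairs that identifier with the name in the labels. It was at 0.611 to 0.796 CPM (counts scaled to 1e+06 per library, TMM-normalized) in the LNA NS libraries of the MDA-MB-468 line and at 0.023 and 0.0235 CPM after knock-down, 1 count in each. It fell to lower levels in every KD library of the other lines too, from 10.7 and 11.2 to 0.576 and 0.416 CPM in SUM149PT and from 14.6 and 15.1 to 1.48 and 2.05 CPM in HCC38. All 8 basal markers on a fixed list were above 1 CPM in MDA-MB-468 and SUM149PT, and 6 of the 8 were in HCC38 given LNA NS. Of 8 luminal or hormone receptor markers, 6 were above 1 CPM in MDA-MB-468 and SUM149PT and 5 in HCC38. With LNA NS these luminal markers summed to 2300 to 2414, 1819 to 1930 and 769 to 809 CPM (MDA-MB-468, SUM149PT, HCC38). Immune cell markers summed to at most 28.8 CPM in any library, and fibroblast, endothelium and erythroid markers to at most 119 CPM, in HCC38. The summed basal markers were at 4952 to 5350.0 CPM in KD libraries of MDA-MB-468 and at 5007 to 5254 CPM in those of SUM149PT, below LNA NS (8120.0 to 8852 and 6432 to 6878 CPM), while HCC38 overlapped (847 to 909 against 896 to 1013 CPM). Single basal markers moved both ways: 3 of the 8 rose and 4 fell in MDA-MB-468, 1 rose and 5 fell in SUM149PT, and 4 rose and 2 fell in HCC38. The sum in MDA-MB-468 was mostly EGFR (2967 and 2634 CPM in KD libraries against 5056 and 6055 CPM) and KRT5, whereas FOXC1 rose in all 3 lines. The part of these markers in the results was not tested.

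Cells enter mitosis when CDK1 bound to cyclin A and cyclin B becomes active. Polo and Aurora kinases then drive spindle assembly, the kinetochore ties each chromosome to microtubules, and the spindle checkpoint holds back the anaphase-promoting complex until all are attached. Kinesin motors move chromosomes and spindle poles, and a ring assembled at the midzone divides the cell. Most of these genes are transcribed late in the cycle, under MuvB complexes with MYBL2 and FOXM1, so that their mRNA level follows the share of cells in G2 and mitosis. In RNA from whole cultures, fewer cells in mitosis and less mRNA per mitotic cell cannot be told apart.

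Late cell cycle promoters are known for a pair of short motifs, the cell cycle homology region (CHR), which MuvB complexes bind, and the CCAAT box of NF-Y. RefSeq promoter windows of GRCh38.p14, from 250 bases before to 50 after the start, were at hand for 51 of the 58 genes, as 62 windows. The windows did not include AURKA, BIRC5, FOXM1, RACGAP1, TPX2, TTK or UBE2C. A CHR (TTTGAA or TTCGAA, either strand) was found in 43 of the 62 windows, 69.4%, and in 16.4% of all 35116 windows of the same length. A CCAAT on either strand was found in 74.2% against 34.6%, both motifs in 56.5% against 6.38%, and an E2F motif (TTTCCCGC, TTTCGCGC, TTTGCCGC or TTTGGCGC, either strand) in 8.06% against 3.31%. The letters TTTGAATTGG hold a CHR and a reversed CCAAT that overlap, and both were counted. The 120 bases before the start are given for 4 genes that hold both motifs, chosen to show their spacing, and for MYBL2. The MYBL2 window holds none of these exact letters, and other forms of the motifs were not searched. Capitals mark CHR and CCAAT matches.
PLK1: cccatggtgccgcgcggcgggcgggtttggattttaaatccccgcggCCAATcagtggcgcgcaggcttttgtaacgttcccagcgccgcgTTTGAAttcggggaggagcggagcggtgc
KIF23: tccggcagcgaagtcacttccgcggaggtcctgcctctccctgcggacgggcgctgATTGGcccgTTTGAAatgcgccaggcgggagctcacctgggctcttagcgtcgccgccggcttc
CCNB2: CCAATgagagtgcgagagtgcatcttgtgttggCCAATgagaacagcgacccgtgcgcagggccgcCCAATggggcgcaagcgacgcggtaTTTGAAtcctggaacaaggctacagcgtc
CDCA8: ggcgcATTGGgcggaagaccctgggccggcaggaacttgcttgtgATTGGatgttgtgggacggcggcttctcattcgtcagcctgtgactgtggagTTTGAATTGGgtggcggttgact
MYBL2: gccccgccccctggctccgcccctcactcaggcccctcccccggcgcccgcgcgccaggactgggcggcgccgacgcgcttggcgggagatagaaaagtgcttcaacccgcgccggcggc
All 5 are on the plus strand: PLK1 at chr16:23678769-23678888, KIF23 at chr15:69414229-69414348, CCNB2 at chr15:59105026-59105145, CDCA8 at chr1:37692396-37692515 and MYBL2 at chr20:43666994-43667113. The CHR began 29 bases before the start in PLK1 and in CCNB2, which holds 3 CCAAT boxes. It began 23 bases before the start in CDCA8 and 55 in KIF23, where a reversed CCAAT began 64 bases before the start. The 39 genes with a CHR had median log2 fold changes of 0.31, 0.09 and -0.35 (MDA-MB-468, SUM149PT, HCC38), and the 12 without one had 0.59, 0.26 and -0.26. A match describes the letters only, and whether a factor bound there was not tested.

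The summed level of the mitotic genes was higher in the KD libraries of MDA-MB-468 and SUM149PT and lower in those of HCC38. The sum was 6865 and 6854 CPM in MDA-MB-468 given LNA NS and 8672 and 8942 CPM in the KD libraries. In SUM149PT it was 9106 and 8761 CPM against 10260.0 and 9605 CPM. HCC38 had the highest sums in LNA NS libraries, 10010.0 and 9870.0 CPM, and 8699 and 8303 CPM after knock-down. The KD and LNA NS libraries did not overlap in any of the lines, and the sum moved the other way in HCC38.

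**Figure D1:**
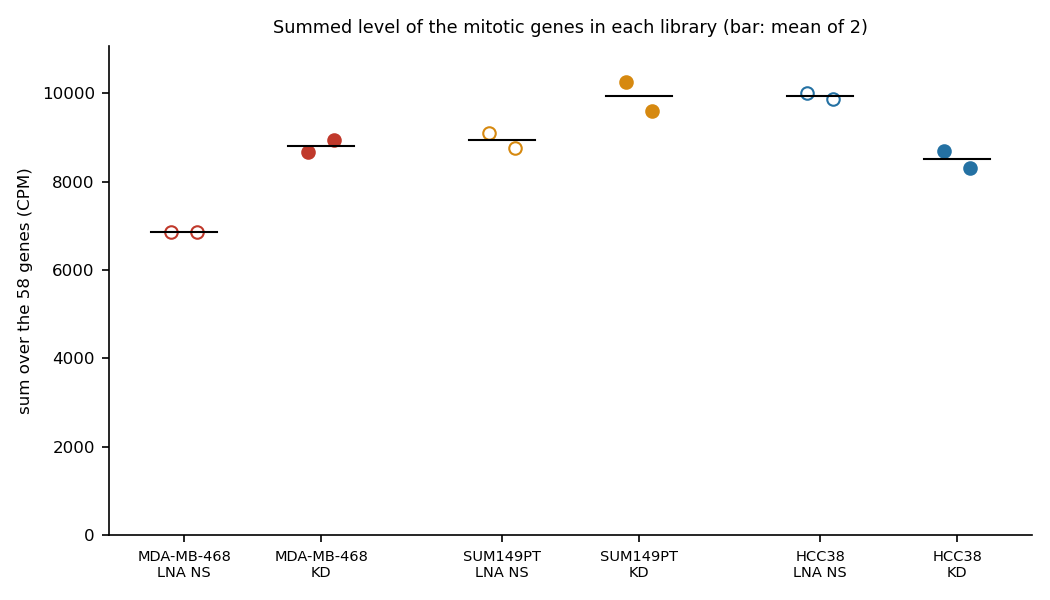
Sum of the TMM-normalized levels of the 58 mitotic genes in CPM, for every library by line and treatment (open, LNA NS; filled, KD; bar, mean of 2). The 2 KD libraries lie above both LNA NS libraries in MDA-MB-468 (8672 and 8942 against 6865 and 6854 CPM) and SUM149PT, and below both in HCC38 (8699 and 8303 against 10010.0 and 9870.0 CPM).

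Gene by gene, a change was called at a Benjamini-Hochberg adjusted p under 0.1 in edgeR's quasi-likelihood test over all 21325 genes. In MDA-MB-468, 37 of the 58 rose and 8 fell, where 24.9% of all genes tested rose and 25.7% fell. In SUM149PT, 22 rose and 8 fell, against 20.0% and 18.0% of all genes. In HCC38, NEK2 and CDC25B rose and 32 fell, against 15.5% and 18.4% of all genes. The median log2 fold change of the 58 was 0.37, 0.16 and -0.29 in the 3 lines, where the medians of all genes were 0.00, 0.03 and 0.01. On average over the lines 26 rose and 17 fell, against 28.4% and 26.5% of all genes. BIRC5, NUSAP1 and ESPL1 were called in none of the lines, 5.17% of the 58 against 33.1% of all genes.

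Single libraries weighed on some of these counts. The 22 rises in SUM149PT became 11 without its KD replicate 1 and 14 without its LNA NS replicate 2, and the 8 falls there became 5 without its LNA NS replicate 1. The 32 falls in HCC38 became 20 without its KD replicate 2, and its 2 rises became 0 without its KD replicate 1 and 1 without any 1 of its other libraries. Upper-quartile scaling put the median of all genes at 0.14, 0.09 and 0.13 (MDA-MB-468, SUM149PT, HCC38), from 0.00, 0.03 and 0.01. It gave 7 rises and 23 falls in HCC38, and 35 rises and 10 falls on average. Relative to the median of all genes, 43, 37 and 9 of the 58 stood above it (MDA-MB-468, SUM149PT, HCC38), under both scalings.

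**Figure D2:**
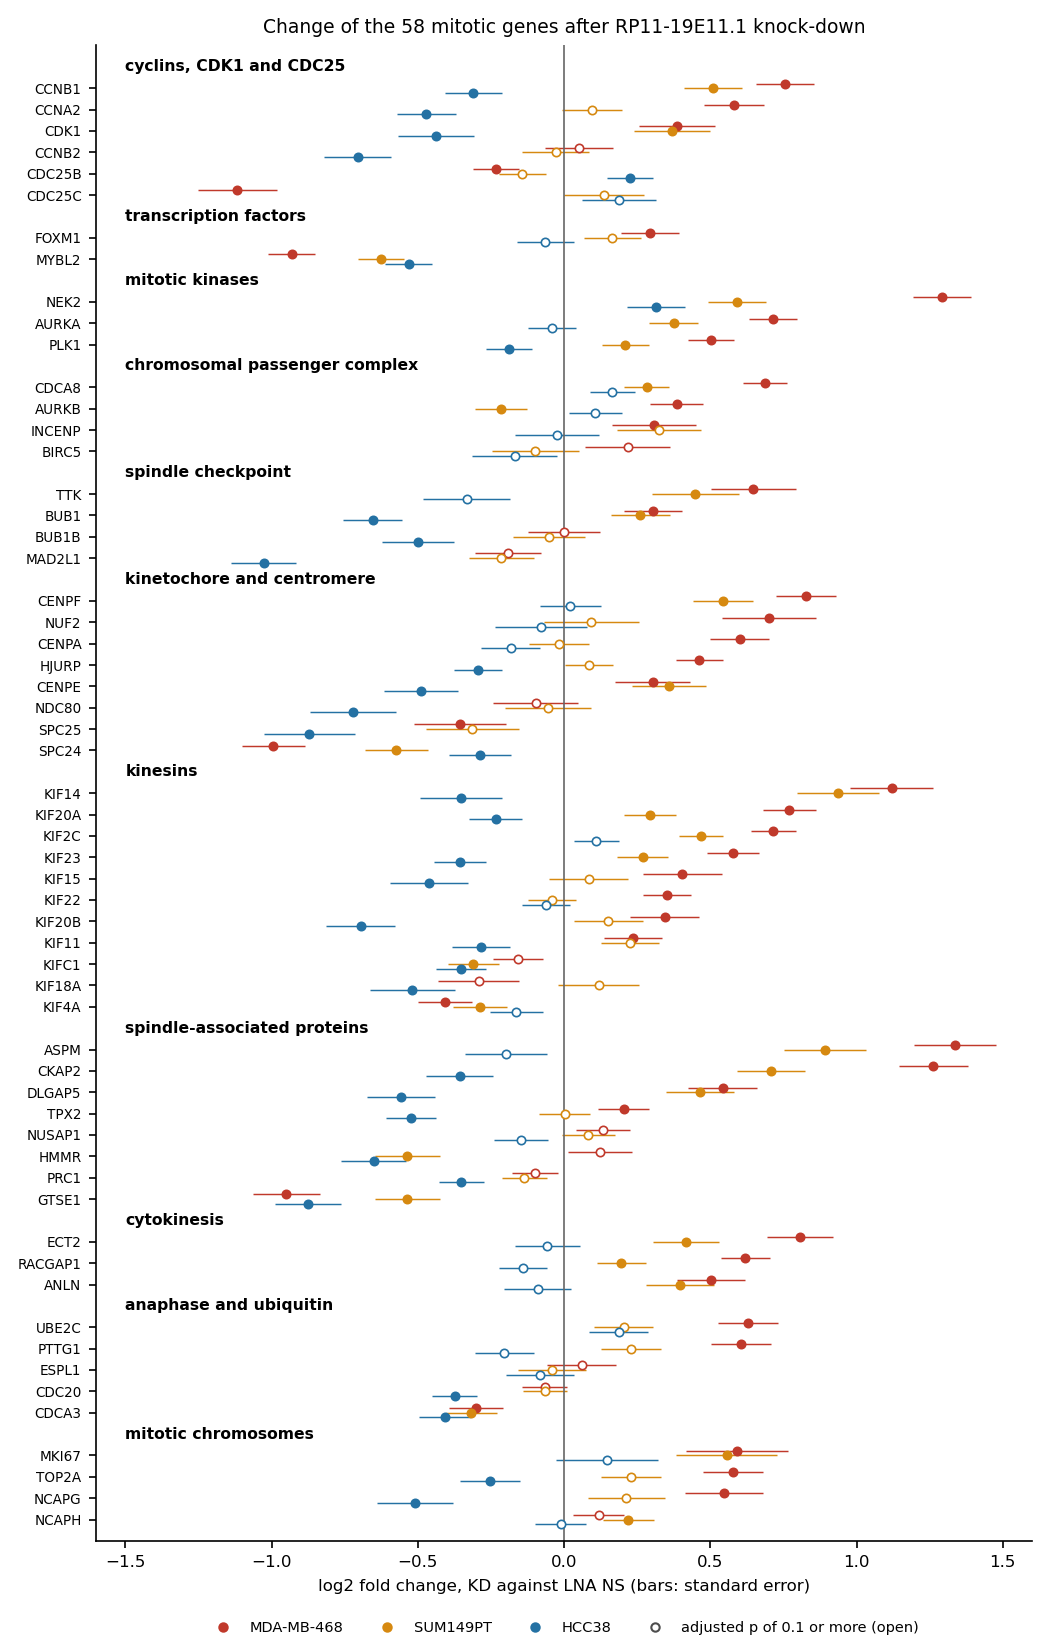
Log2 fold change (KD against LNA NS) with its standard error for each of the 58 genes, grouped by role, in MDA-MB-468 (red), SUM149PT (orange) and HCC38 (blue). Filled points are called at an adjusted p under 0.1. Red points lie mostly right of 0 (37 rises, 8 falls) and blue points mostly left (2 rises, 32 falls), while MYBL2, SPC24, GTSE1 and CDCA3 fell in all 3 lines.

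Among the cyclins and CDK1, calls in MDA-MB-468 were rises and calls in HCC38 were falls. CCNA2 was at 64.2 and 61.6 CPM in MDA-MB-468 given LNA NS and at 92.3 and 95.9 CPM after knock-down, at 119 and 106 against 128 and 112 CPM in SUM149PT, and at 114 and 102 against 83.0 and 72.6 CPM in HCC38. Cyclin A2, which is made before the B cyclins and binds CDK2 and CDK1, was thus higher in both KD libraries of MDA-MB-468 and lower in both of HCC38, while the libraries of SUM149PT overlapped. CCNA2 had log2 fold changes of 0.58 for MDA-MB-468 (SE 0.103, adjusted p = 0.00024), 0.10 for SUM149PT (SE 0.102, adjusted p = 0.53) and -0.47 for HCC38 (SE 0.102, adjusted p = 0.0028). CCNB1 was at 176 and 163 CPM in MDA-MB-468 given LNA NS and at 282.5 and 289.5 CPM after knock-down, at 283 and 299 against 449 and 379 CPM in SUM149PT, and at 234 and 202 against 178.5 and 173 CPM in HCC38. The main mitotic cyclin was higher after knock-down in all 4 KD libraries of MDA-MB-468 and SUM149PT and lower in both of HCC38. CCNB1 had log2 fold changes of 0.76 for MDA-MB-468 (SE 0.0987, adjusted p = 1.4e-05), 0.51 for SUM149PT (SE 0.0981, adjusted p = 0.00094) and -0.31 for HCC38 (SE 0.0982, adjusted p = 0.028). Where a call was lost when 1 library was left out of the fit, the library and the range of the log2 fold change over all 12 such fits are given. Among the cyclins named so far this concerned the CCNB1 call in HCC38 (lost without LNA NS replicate 1 or KD replicate 2, with values of -0.42 to -0.20).

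CDK1 was at 124 and 96.1 CPM in MDA-MB-468 given LNA NS and at 139.7 and 148 CPM after knock-down, at 95.2 and 105 against 139.9 and 118.5 CPM in SUM149PT, and at 323.5 and 253 against 212 and 214 CPM in HCC38. The kinase that drives entry into mitosis did not overlap between groups in any line, although the LNA NS values lay well apart in MDA-MB-468 and HCC38. CDK1 had log2 fold changes of 0.39 for MDA-MB-468 (SE 0.130, adjusted p = 0.024), 0.37 for SUM149PT (SE 0.131, adjusted p = 0.042) and -0.44 for HCC38 (SE 0.129, adjusted p = 0.02). All 3 calls of CDK1 depended on single libraries. These were the CDK1 call in MDA-MB-468 (lost without LNA NS replicate 2 or KD replicate 2, with values of 0.21 to 0.57), the CDK1 call in SUM149PT (lost without LNA NS replicate 1 or KD replicate 1, with values of 0.24 to 0.49) and the CDK1 call in HCC38 (lost without LNA NS replicate 1, with values of -0.61 to -0.25). CCNB2, the other B cyclin, fell in HCC38 with a log2 fold change of -0.71 (SE 0.115, adjusted p = 0.00028) and had values of 0.05 and -0.03 in the other lines, not called.

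The CDC25 phosphatases, which remove the inhibitory phosphates from CDK1, did not follow the cyclins. CDC25C was at 18.3 and 14.5 CPM in MDA-MB-468 given LNA NS and at 7.43 and 7.67 CPM after knock-down, at 8.70 and 9.64 against 10.3 and 9.80 CPM in SUM149PT, and at 26.4 and 23.3 against 28.6 and 28.0 CPM in HCC38. The KD libraries of MDA-MB-468 had less than any LNA NS library of that line, and those of the other lines lay slightly above theirs. CDC25C had log2 fold changes of -1.12 for MDA-MB-468 (SE 0.135, adjusted p = 6e-06), 0.14 for SUM149PT (SE 0.137, adjusted p = 0.5) and 0.19 for HCC38 (SE 0.126, adjusted p = 0.3). This was the largest fall of any member in MDA-MB-468. CDC25B was at 335 and 355 CPM in MDA-MB-468 given LNA NS and at 307 and 280.2 CPM after knock-down, at 295 and 297 against 272 and 264 CPM in SUM149PT, and at 359.6 and 371 against 429 and 426 CPM in HCC38. CDC25B was lower in both KD libraries of MDA-MB-468 and SUM149PT and higher in both of HCC38. It gave log2 fold changes of -0.23 (SE 0.0789, adjusted p = 0.026) in MDA-MB-468, -0.14 in SUM149PT (adjusted p = 0.2) and 0.23 (SE 0.0788, adjusted p = 0.044) in HCC38. Single libraries decided the CDC25B call in MDA-MB-468 (lost without LNA NS replicate 2 or KD replicate 2, with values of -0.31 to -0.17) and the CDC25B call in HCC38 (lost without LNA NS replicate 1, KD replicate 1 or KD replicate 2, with values of 0.20 to 0.24).

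Of the 2 transcription factors that switch on G2/M genes, MYBL2 fell in all 3 lines and FOXM1 did not. MYBL2 was at 367 and 378 CPM in MDA-MB-468 given LNA NS and at 206 and 185 CPM after knock-down, at 476 and 490.3 against 317 and 309 CPM in SUM149PT, and at 757 and 742 against 507 and 529 CPM in HCC38. All 6 KD libraries were below the LNA NS libraries of their own line, with no overlap. MYBL2 had log2 fold changes of -0.93 for MDA-MB-468 (SE 0.0803, adjusted p = 1.8e-07), -0.63 for SUM149PT (SE 0.0798, adjusted p = 2.7e-05) and -0.53 for HCC38 (SE 0.0795, adjusted p = 0.00013). FOXM1 was at 107.5 and 124 CPM in MDA-MB-468 given LNA NS and at 144 and 140.3 CPM after knock-down, at 408.5 and 371 against 444 and 430.4 CPM in SUM149PT, and at 185 and 220.3 against 198 and 190.0 CPM in HCC38. FOXM1, a forkhead factor, was higher in both KD libraries of MDA-MB-468 and of SUM149PT by small amounts, and its HCC38 libraries overlapped. FOXM1 had log2 fold changes of 0.29 for MDA-MB-468 (SE 0.0993, adjusted p = 0.024), 0.17 for SUM149PT (SE 0.0984, adjusted p = 0.23) and -0.06 for HCC38 (SE 0.0987, adjusted p = 0.69). Single libraries decided the FOXM1 call in MDA-MB-468 (lost without LNA NS replicate 1 or KD replicate 1, with values of 0.18 to 0.40). The interaction test gave an adjusted p of 0.16 for FOXM1 and of 0.035 for MYBL2. FOXM1 overlaps ITFG2 and RHNO1, which lie on the opposite strand.

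**Figure D3:**
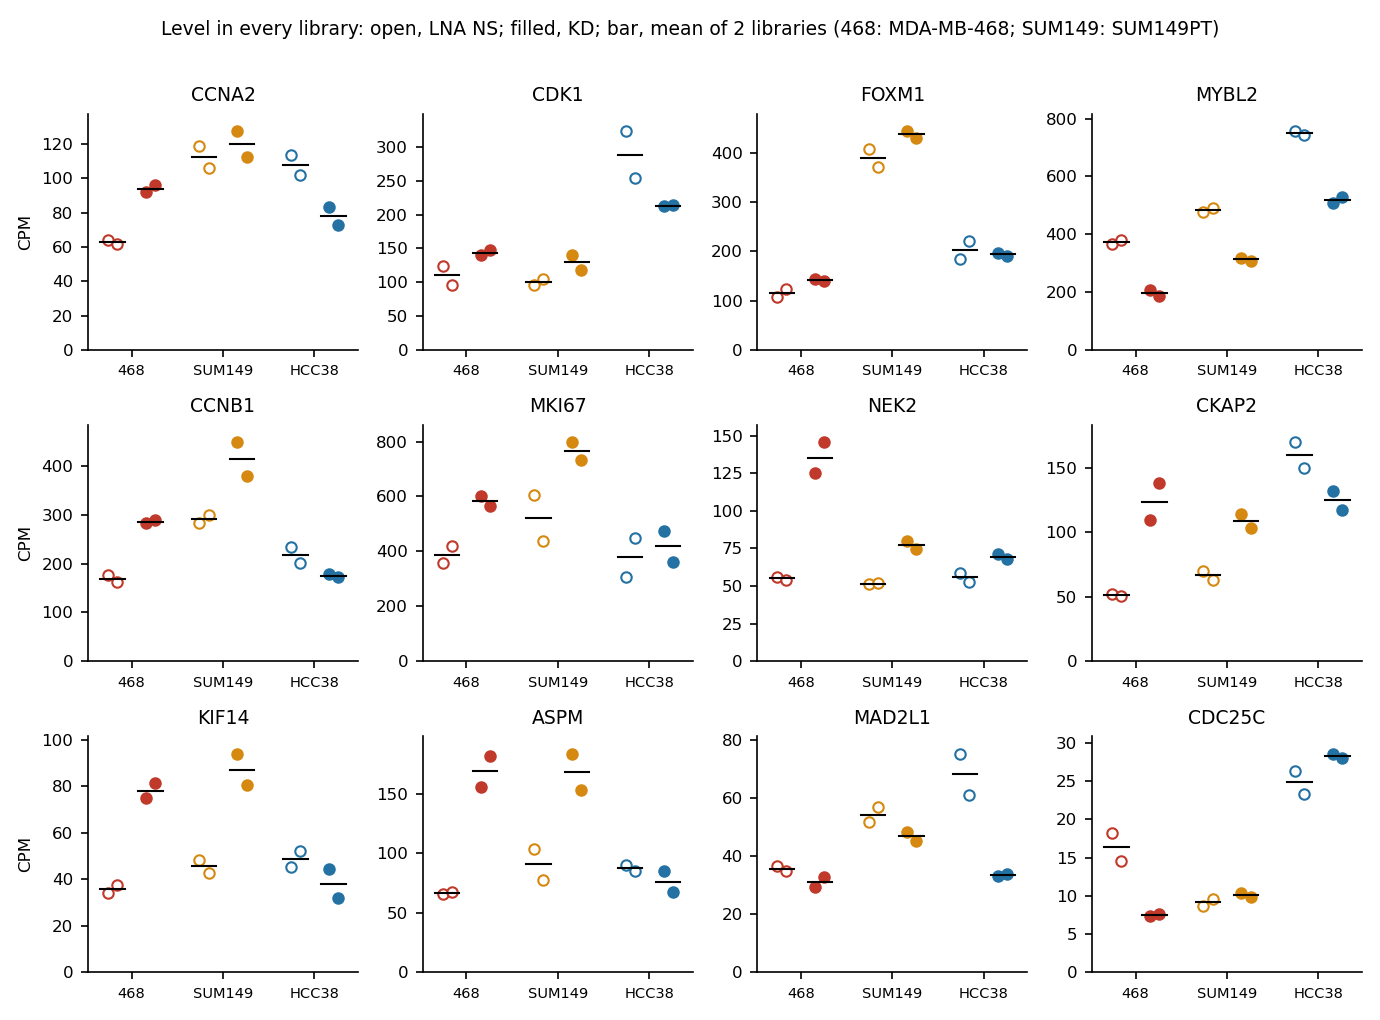
TMM-normalized level in CPM of 12 mitotic genes in each of the 12 libraries, by line (open, LNA NS; filled, KD; bar, mean of 2). CCNA2, CCNB1 and CDK1 are higher in KD libraries of MDA-MB-468 and lower in those of HCC38, MYBL2 is lower in KD libraries of every line, NEK2 is higher in every line, and CDC25C is lower in KD libraries of MDA-MB-468 at 7.43 and 7.67 CPM.

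NEK2, AURKA and PLK1, grouped here as mitotic kinases, rose in MDA-MB-468 and in SUM149PT, where 24.9% and 20.0% of all genes rose. Other kinases among the 58 are given under other headings. Of these, CDK1, BUB1 and TTK rose in both lines, while AURKB rose in MDA-MB-468 and fell in SUM149PT. NEK2 was at 56.2 and 54.3 CPM in MDA-MB-468 given LNA NS and at 125 and 145.5 CPM after knock-down, at 51.1 and 51.7 against 80.2 and 74.6 CPM in SUM149PT, and at 58.9 and 52.8 against 71.2 and 67.7 CPM in HCC38. NEK2, which splits the centrosomes before the spindle forms, was the only 1 of the 58 genes to rise in all 3 lines, a pattern that 6.60% of all genes had. NEK2 had log2 fold changes of 1.29 for MDA-MB-468 (SE 0.0992, adjusted p = 5.5e-08), 0.59 for SUM149PT (SE 0.0988, adjusted p = 0.0003) and 0.31 for HCC38 (SE 0.0981, adjusted p = 0.026). Of its calls, single libraries decided the NEK2 call in HCC38 (lost without KD replicate 1 or LNA NS replicate 2, with values of 0.23 to 0.39). AURKA, the Aurora kinase of spindle poles, had log2 fold changes of 0.71, 0.37 and -0.04 in MDA-MB-468, SUM149PT and HCC38, the last not called. PLK1, the polo kinase, had 0.50, 0.21 and -0.19, called in each line, but its calls in SUM149PT and HCC38 rested on small margins (adjusted p = 0.057 and 0.093). Both depended on single libraries, the PLK1 call in SUM149PT (lost without any 1 library of that line, with values of 0.19 to 0.23) and the PLK1 call in HCC38 (lost without any 1 library other than LNA NS replicate 1, with values of -0.25 to -0.13).

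The chromosomal passenger complex corrects faulty attachments and later guides cytokinesis. CDCA8 (borealin) was at 184 and 186 CPM with LNA NS and 293 and 303 CPM after knock-down in MDA-MB-468 and rose there by 0.69 and in SUM149PT by 0.28, while HCC38 gave 0.17 (adjusted p = 0.12). Its kinase AURKB rose by 0.39 in MDA-MB-468 and fell by 0.21 on the log2 scale in SUM149PT (adjusted p = 0.082). The scaffold INCENP rose by 0.31 in MDA-MB-468 (adjusted p = 0.098). Single libraries decided the AURKB call in SUM149PT (lost without any 1 library of that line, with values of -0.27 to -0.16) and the INCENP call in MDA-MB-468 (lost without LNA NS replicate 1, KD replicate 1, KD replicate 2, KD replicate 1 of SUM149PT, KD replicate 2 of SUM149PT or KD replicate 1 of HCC38, with values of 0.15 to 0.47). BIRC5 (survivin) had values of 0.22, -0.10 and -0.17 in the 3 lines, none called. No member of this complex was called in HCC38, where 15.5% of all genes rose and 18.4% fell.

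The 4 checkpoint genes split within the group. BUB1, a kinase of the unattached kinetochore, was at 178 and 165 CPM with LNA NS and 116 and 102 CPM after knock-down in HCC38, with no overlap. It fell there by 0.66 on the log2 scale (adjusted p = 0.00016) and rose by 0.30 in MDA-MB-468 and by 0.26 in SUM149PT. MAD2L1 was at 36.6 and 34.8 CPM in MDA-MB-468 given LNA NS and at 29.6 and 32.9 CPM after knock-down, at 51.8 and 57.0 against 48.3 and 45.4 CPM in SUM149PT, and at 75.4 and 61.2 against 33.2 and 33.8 CPM in HCC38. MAD2L1, the inhibitor that blocks CDC20, was lower in KD libraries of all 3 lines, and in HCC38 both fell to about the level of MDA-MB-468. MAD2L1 had log2 fold changes of -0.19 for MDA-MB-468 (SE 0.113, adjusted p = 0.19), -0.21 for SUM149PT (SE 0.111, adjusted p = 0.16) and -1.03 for HCC38 (SE 0.112, adjusted p = 6.7e-06). TTK, the kinase that starts the checkpoint, rose by 0.65 and 0.45 in MDA-MB-468 and SUM149PT and had -0.33 in HCC38, not called. BUB1B fell in HCC38 (log2 fold change -0.50). Among checkpoint genes, single libraries decided the BUB1 call in MDA-MB-468 (lost without LNA NS replicate 2 or KD replicate 2, with values of 0.26 to 0.34), the BUB1 call in SUM149PT (lost without KD replicate 1, LNA NS replicate 2, LNA NS replicate 1 of MDA-MB-468 or LNA NS replicate 2 of MDA-MB-468, with values of 0.14 to 0.38), the TTK call in SUM149PT (lost without LNA NS replicate 1 or KD replicate 1, with values of 0.23 to 0.64) and the BUB1B call in HCC38 (lost without KD replicate 2, with values of -0.70 to -0.34).

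Kinetochore and centromere genes rose in 5 of 8 cases in MDA-MB-468 (2 fell), in 2 of 8 in SUM149PT (1 fell) and in none in HCC38 (5 fell). Over all genes tested, rises and falls were 24.9% and 25.7% in MDA-MB-468, 20.0% and 18.0% in SUM149PT and 15.5% and 18.4% in HCC38. SPC24, SPC25, NDC80 and NUF2 encode the 4 subunits of the complex that grips the microtubule. SPC24 was at 54.0 and 49.3 CPM in MDA-MB-468 given LNA NS and at 25.8 and 26.0 CPM after knock-down, at 48.4 and 54.7 against 34.8 and 34.4 CPM in SUM149PT, and at 45.0 and 39.8 against 32.6 and 37.0 CPM in HCC38. SPC24 was lower in both KD libraries of each line. SPC24 had log2 fold changes of -0.99 for MDA-MB-468 (SE 0.108, adjusted p = 2.1e-06), -0.57 for SUM149PT (SE 0.107, adjusted p = 0.00075) and -0.29 for HCC38 (SE 0.107, adjusted p = 0.059). SPC25 was at 22.3 and 20.4 CPM in MDA-MB-468 given LNA NS and at 16.2 and 17.1 CPM after knock-down, at 16.1 and 18.2 against 14.7 and 12.8 CPM in SUM149PT, and at 35.1 and 23.6 against 16.1 and 15.9 CPM in HCC38. SPC25 was lower in both KD libraries of each line, and its LNA NS libraries of HCC38 lay far apart. SPC25 had log2 fold changes of -0.36, -0.31 and -0.87, called in MDA-MB-468 (adjusted p = 0.079) and HCC38. NUF2 rose by 0.70 in MDA-MB-468 and NDC80 fell by 0.72 on the log2 scale in HCC38, so that the subunits of this 1 complex were not called in the same direction in MDA-MB-468. Here leaving out 1 library ended the SPC24 call in HCC38 (lost without LNA NS replicate 1 or KD replicate 1, with values of -0.38 to -0.20) and the SPC25 call in MDA-MB-468 (lost without any 1 library of that line, with values of -0.42 to -0.30).

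At the centromere, CENPF is a large protein of the outer kinetochore. CENPF was at 279 and 288 CPM in MDA-MB-468 given LNA NS and at 508.5 and 498 CPM after knock-down, at 257 and 223 against 371 and 329.5 CPM in SUM149PT, and at 235 and 246 against 268 and 219 CPM in HCC38. Its KD libraries lay above LNA NS in MDA-MB-468 and SUM149PT and overlapped in HCC38. It rose in MDA-MB-468 by 0.83 (SE 0.104, adjusted p = 9.1e-06) and in SUM149PT by 0.54, and had 0.02 in HCC38. CENPA, the histone H3 variant that marks the centromere, rose by 0.60 in MDA-MB-468 (adjusted p = 0.00014), with -0.02 and -0.18 in the other lines, not called. It overlaps SLC35F6 on the same strand, so reads could be split between them. Its chaperone HJURP rose by 0.46 in MDA-MB-468 and fell by 0.29 on the log2 scale in HCC38. The motor CENPE had 0.30, 0.36 and -0.49, called in each line. Of these, single libraries decided the HJURP call in HCC38 (lost without KD replicate 2, with values of -0.34 to -0.27), the CENPE call in MDA-MB-468 (lost without LNA NS replicate 1, LNA NS replicate 2 or KD replicate 2, with values of 0.13 to 0.45), the CENPE call in SUM149PT (lost without LNA NS replicate 1, KD replicate 1 or LNA NS replicate 2, with values of 0.25 to 0.46) and the CENPE call in HCC38 (lost without KD replicate 2, with values of -0.69 to -0.33).

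Among the 11 kinesins, 8 rose and 1 fell in MDA-MB-468, 4 rose and 2 fell in SUM149PT, and 8 fell in HCC38 with no rise. Of all genes tested, 24.9% rose and 25.7% fell in MDA-MB-468, 20.0% and 18.0% in SUM149PT, and 15.5% and 18.4% in HCC38. KIF14 was at 34.3 and 37.5 CPM in MDA-MB-468 given LNA NS and at 74.8 and 81.2 CPM after knock-down, at 48.5 and 42.5 against 94.0 and 80.4 CPM in SUM149PT, and at 45.3 and 52.0 against 44.2 and 31.9 CPM in HCC38. This motor of the midbody was higher in the KD libraries of MDA-MB-468 and SUM149PT, with no overlap, and somewhat lower in those of HCC38. KIF14 had log2 fold changes of 1.12 for MDA-MB-468 (SE 0.141, adjusted p = 9.5e-06), 0.94 for SUM149PT (SE 0.140, adjusted p = 0.00011) and -0.35 for HCC38 (SE 0.140, adjusted p = 0.076). Single libraries decided the KIF14 call in HCC38 (lost without LNA NS replicate 2, KD replicate 2, LNA NS replicate 1 of MDA-MB-468 or LNA NS replicate 2 of MDA-MB-468, with values of -0.63 to -0.14). With the gene length trend removed, KIF14 in HCC38 was at -0.17 (adjusted p = 0.4). KIF2C takes microtubules apart at the centromere. KIF2C was at 201 and 195 CPM in MDA-MB-468 given LNA NS and at 327 and 324 CPM after knock-down, at 183 and 184 against 255 and 253 CPM in SUM149PT, and at 234 and 226 against 243 and 253 CPM in HCC38. No line overlapped between groups. KIF2C had log2 fold changes of 0.72, 0.47 and 0.11, the last not called.

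KIF20A, which carries the passenger complex to the midzone, had log2 fold changes of 0.77, 0.29 and -0.23 in the 3 lines, all called. KIF23, which forms centralspindlin with RACGAP1, had 0.58, 0.27 and -0.36, also all called. KIF20B rose by 0.34 in MDA-MB-468 and fell by 0.70 on the log2 scale in HCC38, the largest fall of a kinesin. KIF11, which pushes the spindle poles apart, had 0.24 in MDA-MB-468 and -0.28 in HCC38, both called, and KIF15, which backs it up, had 0.40 and -0.46. KIF15 was at 19.3 and 19.9 CPM in MDA-MB-468 given LNA NS and at 26.3 and 25.5 CPM after knock-down, at 21.5 and 18.3 against 23.6 and 18.5 CPM in SUM149PT, and at 33.6 and 31.8 against 26.0 and 21.4 CPM in HCC38. Its groups overlapped in SUM149PT alone. KIF22, a motor on chromosome arms, rose in MDA-MB-468 by 0.35, its one call. KIF4A, KIFC1 and KIF18A had no called rise in any line. KIF4A fell in MDA-MB-468 and SUM149PT (-0.41 and -0.29) and was not called in HCC38. KIFC1, a minus-end motor, fell in SUM149PT and HCC38 (-0.31 and -0.35), and KIF18A, which aligns chromosomes, fell in HCC38 (-0.52). KIF18A was at 38.9 and 36.4 CPM in MDA-MB-468 given LNA NS and at 30.8 and 30.7 CPM after knock-down, at 27.2 and 25.1 against 30.3 and 26.4 CPM in SUM149PT, and at 18.0 and 13.2 against 11.8 and 9.88 CPM in HCC38. Its KD libraries were below LNA NS in MDA-MB-468 and HCC38 and overlapped in SUM149PT. KIF20A overlaps CDC23 and BRD8 on the opposite strand, and KIF15 overlaps TMEM42 on its own strand. Leaving out 1 library ended the KIF20A call in SUM149PT (lost without KD replicate 1 or LNA NS replicate 2, with values of 0.20 to 0.39) and the KIF20A call in HCC38 (lost without LNA NS replicate 2, KD replicate 2, LNA NS replicate 1 of MDA-MB-468 or LNA NS replicate 2 of MDA-MB-468, with values of -0.31 to -0.17). It also ended the KIF23 call in SUM149PT (lost without LNA NS replicate 1, KD replicate 1 or LNA NS replicate 2, with values of 0.18 to 0.35), the KIF20B call in MDA-MB-468 (lost without LNA NS replicate 2 or KD replicate 2, with values of 0.20 to 0.47), the KIF4A call in SUM149PT (lost without LNA NS replicate 1 or KD replicate 2, with values of -0.38 to -0.20) and the KIFC1 call in SUM149PT (lost without LNA NS replicate 1, with values of -0.38 to -0.24). For the motors of the spindle poles it ended the KIF11 call in MDA-MB-468 (lost without LNA NS replicate 2, KD replicate 2 or LNA NS replicate 1 of SUM149PT, with values of 0.16 to 0.30), the KIF11 call in HCC38 (lost without LNA NS replicate 1 or KD replicate 2, with values of -0.37 to -0.19), the KIF15 call in MDA-MB-468 (lost without LNA NS replicate 1 or KD replicate 1, with values of 0.37 to 0.43) and the KIF15 call in HCC38 (lost without LNA NS replicate 1 or KD replicate 2, with values of -0.63 to -0.33). The last kinesin call of this kind was the KIF18A call in HCC38 (lost without LNA NS replicate 1 or KD replicate 2, with values of -0.73 to -0.28).

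In MDA-MB-468 the widest range was among the spindle-associated proteins. ASPM was at 66.2 and 67.5 CPM in MDA-MB-468 given LNA NS and at 156 and 181.5 CPM after knock-down, at 103.5 and 77.9 against 184 and 153 CPM in SUM149PT, and at 90.2 and 85.2 against 85.2 and 67.5 CPM in HCC38. This spindle pole protein was far higher in both KD libraries of MDA-MB-468 and had the largest rise of all 58 genes there. ASPM had log2 fold changes of 1.34 for MDA-MB-468 (SE 0.141, adjusted p = 1.5e-06), 0.89 for SUM149PT (SE 0.140, adjusted p = 0.00017) and -0.20 for HCC38 (SE 0.139, adjusted p = 0.33). CKAP2 was at 52.2 and 51.0 CPM in MDA-MB-468 given LNA NS and at 109.5 and 138 CPM after knock-down, at 70.1 and 63.3 against 114 and 104 CPM in SUM149PT, and at 170.0 and 149.8 against 132 and 118 CPM in HCC38. CKAP2, a microtubule-stabilizing protein, was higher in all 4 KD libraries of MDA-MB-468 and SUM149PT and lower in both of HCC38. CKAP2 had log2 fold changes of 1.26 for MDA-MB-468 (SE 0.117, adjusted p = 3.9e-07), 0.71 for SUM149PT (SE 0.116, adjusted p = 0.00025) and -0.36 for HCC38 (SE 0.114, adjusted p = 0.03). For CKAP2, leaving out 1 library ended the CKAP2 call in HCC38 (lost without LNA NS replicate 1 or KD replicate 2, with values of -0.46 to -0.27). ASPM, CKAP2, KIF14 and NEK2 were the 4 members that rose more than 2-fold in MDA-MB-468, where 9.21% of all genes did.

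GTSE1 was at 75.2 and 84.5 CPM in MDA-MB-468 given LNA NS and at 41.9 and 40.8 CPM after knock-down, at 88.5 and 69.4 against 54.1 and 54.9 CPM in SUM149PT, and at 104 and 117 against 60.5 and 59.9 CPM in HCC38. GTSE1, which binds microtubules and dampens p53, had no overlap between groups in any line. GTSE1 had log2 fold changes of -0.95 for MDA-MB-468 (SE 0.114, adjusted p = 5.5e-06), -0.54 for SUM149PT (SE 0.113, adjusted p = 0.0019) and -0.88 for HCC38 (SE 0.112, adjusted p = 3.2e-05). HMMR was at 53.0 and 50.5 CPM in MDA-MB-468 given LNA NS and at 52.6 and 60.1 CPM after knock-down, at 65.9 and 60.5 against 44.4 and 42.7 CPM in SUM149PT, and at 47.4 and 39.6 against 26.5 and 28.9 CPM in HCC38. HMMR, a spindle protein that is also a hyaluronan receptor, was lower in KD libraries of SUM149PT and HCC38, and its MDA-MB-468 libraries overlapped. HMMR had log2 fold changes of 0.12 for MDA-MB-468 (SE 0.110, adjusted p = 0.39), -0.54 for SUM149PT (SE 0.110, adjusted p = 0.0016) and -0.65 for HCC38 (SE 0.111, adjusted p = 0.00043). TPX2, which activates Aurora A, was at 664 and 646 CPM with LNA NS and 466.5 and 444.5 CPM after knock-down in HCC38, where its log2 fold change was -0.52 (SE 0.0861, adjusted p = 0.00031). It rose by 0.20 in MDA-MB-468 and gave 0.00 in SUM149PT, not called. DLGAP5, a bundler of kinetochore fibres, had 0.54, 0.46 and -0.56, and PRC1, which bundles the midzone, fell by 0.35 on the log2 scale in HCC38. MYBL2, SPC24, GTSE1 and CDCA3 were the 4 members that fell in all 3 lines, a pattern of 8.74% of all genes. In this group 1 library decided the TPX2 call in MDA-MB-468 (lost without any 1 library of that line or LNA NS replicate 1 of SUM149PT, with values of 0.16 to 0.23) and the CDCA3 call in MDA-MB-468 (lost without KD replicate 1, with values of -0.37 to -0.24).

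The 3 cytokinesis genes rose together in MDA-MB-468 and SUM149PT, where 24.9% and 20.0% of all genes rose. ECT2, the exchange factor that activates RhoA at the midzone, had log2 fold changes of 0.81, 0.42 and -0.06 in MDA-MB-468, SUM149PT and HCC38. RACGAP1 had 0.62, 0.20 and -0.14 and ANLN (anillin, of the contractile ring) 0.50, 0.40 and -0.09. None of the 3 was called in HCC38, where 15.5% of all genes rose and 18.4% fell. The RACGAP1 call in SUM149PT had an adjusted p of 0.092. The SUM149PT calls depended on single libraries: the RACGAP1 call in SUM149PT (lost without any 1 of the 12 libraries, with values of 0.14 to 0.25), the ANLN call in SUM149PT (lost without KD replicate 1 or LNA NS replicate 2, with values of 0.29 to 0.51) and the ECT2 call in SUM149PT (lost without LNA NS replicate 2, with values of 0.30 to 0.54).

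Genes of anaphase onset moved less evenly. CDC20 was at 443 and 429 CPM in MDA-MB-468 given LNA NS and at 425 and 407 CPM after knock-down, at 606 and 641 against 605 and 587 CPM in SUM149PT, and at 473 and 479 against 357 and 378 CPM in HCC38. This activator, which the checkpoint holds, was lower in both KD libraries of each line. It fell in HCC38 by 0.37 on the log2 scale and gave -0.07 and -0.07 in the other lines, not called. UBE2C is the ubiquitin-conjugating enzyme of the anaphase-promoting complex. UBE2C was at 184 and 177 CPM in MDA-MB-468 given LNA NS and at 261 and 297 CPM after knock-down, at 298 and 346 against 351 and 391 CPM in SUM149PT, and at 383 and 355 against 395 and 446 CPM in HCC38. Its KD libraries were above LNA NS in each line. UBE2C had log2 fold changes of 0.63, 0.20 and 0.19, of which only the rise in MDA-MB-468 was called. PTTG1 (securin) rose in MDA-MB-468 by 0.60, and ESPL1 (separase), the protease it blocks, was not called anywhere (0.06, -0.04 and -0.08).

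On mitotic chromosomes, MKI67 had the largest standard errors of the 58 genes. MKI67 was at 356 and 419.9 CPM in MDA-MB-468 given LNA NS and at 602 and 566 CPM after knock-down, at 605 and 437 against 797 and 734 CPM in SUM149PT, and at 306 and 450.1 against 476 and 362 CPM in HCC38. The KD libraries of MDA-MB-468 and SUM149PT were above the LNA NS libraries, and those of HCC38 overlapped. MKI67 had log2 fold changes of 0.59 for MDA-MB-468 (SE 0.174, adjusted p = 0.011), 0.56 for SUM149PT (SE 0.174, adjusted p = 0.023) and 0.15 for HCC38 (SE 0.173, adjusted p = 0.58). TOP2A, which untangles sister DNA, rose by 0.58 in MDA-MB-468 and fell by 0.25 on the log2 scale in HCC38. Condensin subunit NCAPG had 0.55 and -0.51 in these lines, while NCAPH had 0.12 and -0.01, neither called. Leaving out 1 library ended the MKI67 call in MDA-MB-468 (lost without LNA NS replicate 1, with values of 0.47 to 0.71), the MKI67 call in SUM149PT (lost without KD replicate 1 or LNA NS replicate 2, with values of 0.33 to 0.81), the TOP2A call in HCC38 (lost without LNA NS replicate 1, LNA NS replicate 2, KD replicate 2, LNA NS replicate 1 of MDA-MB-468, LNA NS replicate 2 of MDA-MB-468 or LNA NS replicate 1 of SUM149PT, with values of -0.40 to -0.14) and the NCAPG call in HCC38 (lost without LNA NS replicate 1, with values of -0.67 to -0.33).

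Whether the response differed between lines was tested directly. An F test of the difference between the 3 changes was past the threshold for 45 of the 58 genes, against 32.4% of all genes. The change was lower in HCC38 than in MDA-MB-468 for 40 and higher for 4 (CDC25B, CDC25C, MYBL2 and SPC24), where 13.0% and 13.8% of all genes were. Against SUM149PT it was lower in HCC38 for 32 and higher for CDC25B alone (9.55% and 6.64% of all genes). Between SUM149PT and MDA-MB-468, 13 were lower in SUM149PT and 2 higher, CDC25C and SPC24 (5.28% and 9.94% of all genes). CKAP2 had the smallest p of the F test, 3.9e-05, with a change that was -1.62 (SE 0.163) in HCC38 relative to MDA-MB-468. The next largest differences were -1.53 for ASPM and -1.47 for KIF14.

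In 44 of the 58 genes the log2 fold changes ran downward from MDA-MB-468 through SUM149PT to HCC38, as 19.6% of all genes did. In 21 genes the rise was called in both MDA-MB-468 and SUM149PT, against 13.6% of all genes, and 11 did so without KD replicate 1 of SUM149PT. Called changes in opposite directions, up in MDA-MB-468 and down in HCC38, were found for 18 genes, against 1.14% of all genes. These were CCNA2, CCNB1, CDK1, PLK1, BUB1, CENPE, HJURP, KIF11, KIF14, KIF15, KIF20A, KIF20B, KIF23, TPX2, DLGAP5, CKAP2, TOP2A and NCAPG. The number was 8 without LNA NS replicate 2 of MDA-MB-468 or KD replicate 2 of HCC38, and 11 without LNA NS replicate 1 or KD replicate 2 of MDA-MB-468, without LNA NS replicate 1 of HCC38, or with upper-quartile scaling. CCNA2, KIF23 and DLGAP5 kept both calls in all 12 fits that left out 1 library. The difference between HCC38 and MDA-MB-468 itself was called for all 18 and was still called in each of those fits for 17 of them, with KIF11 as the exception. All 18 were picked by their calls in these same libraries, so a called difference between the lines follows largely from that choice.

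The lower counts of the differences also rested on single libraries. Without KD replicate 1 of SUM149PT, LNA NS replicate 1 of HCC38, KD replicate 2 of HCC38 or LNA NS replicate 2 of SUM149PT, the 32 genes lower in HCC38 than in SUM149PT became 14, 16, 17 and 19. The 13 genes lower in SUM149PT than in MDA-MB-468 became 4 without KD replicate 2 of MDA-MB-468, 6 without either of its LNA NS libraries, and 7 without LNA NS replicate 1 or KD replicate 2 of SUM149PT. Over the 58 genes the changes in MDA-MB-468 and SUM149PT had a Pearson correlation of 0.82, where all 21325 genes had 0.41. MDA-MB-468 and HCC38 gave 0.33 (0.41 over all genes), and SUM149PT and HCC38 0.36 (0.35). These describe genes measured in the same libraries, which are not independent, and each line had its own LNA NS libraries.

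**Figure D4:**
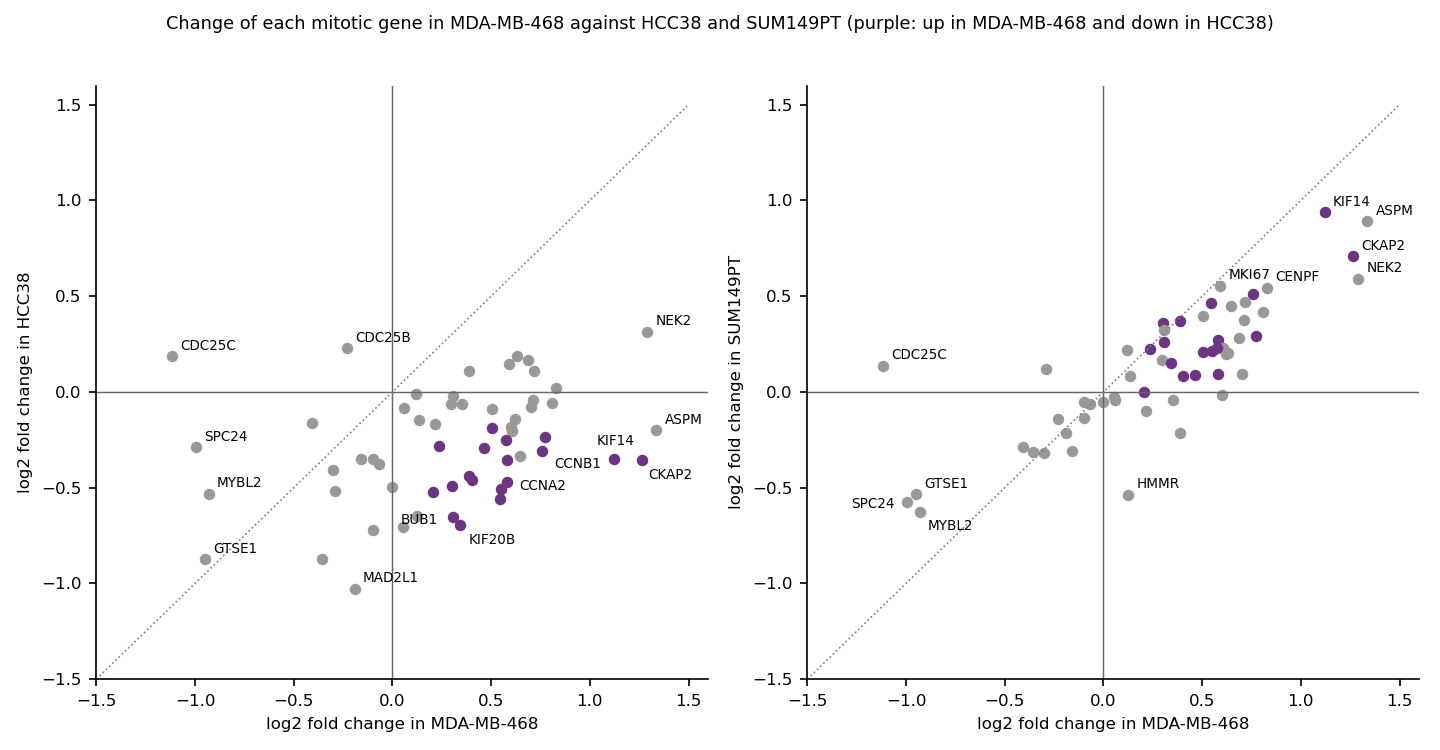
Log2 fold change of each of the 58 genes in MDA-MB-468 (x axis) against HCC38 (left) and SUM149PT (right), with a dotted line of equal change; purple marks the 18 genes called up in MDA-MB-468 and down in HCC38. On the right the points follow a rising line (Pearson correlation 0.82), and on the left most lie below the dotted line (0.33).

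Early regulators of the G2 to M step, kinesins and the other genes overlapped in their changes, and no test between these classes was made. The early class held CCNA2, CDK1, FOXM1 and MYBL2 and had median log2 fold changes of 0.34, 0.13 and -0.45 (MDA-MB-468, SUM149PT, HCC38). The 11 kinesins had medians of 0.35, 0.15 and -0.35, and the other 43 genes 0.39, 0.20 and -0.20. In MDA-MB-468 the early class gave 3 rises and 1 fall, the kinesins 8 and 1, and the rest 26 and 6. All genes tested had 24.9% rises and 25.7% falls there. In HCC38 the falls were 3 of 4, 8 of 11 and 21 of 43, against 18.4% of all genes. Within each class the spread was wider than the distance between medians: early genes ran from -0.93 to 0.58 in MDA-MB-468, kinesins from -0.41 to 1.12 and the others from -1.12 to 1.34. MYBL2 was the early gene that differed from the rest of its class in MDA-MB-468 and SUM149PT.

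**Figure D5:**
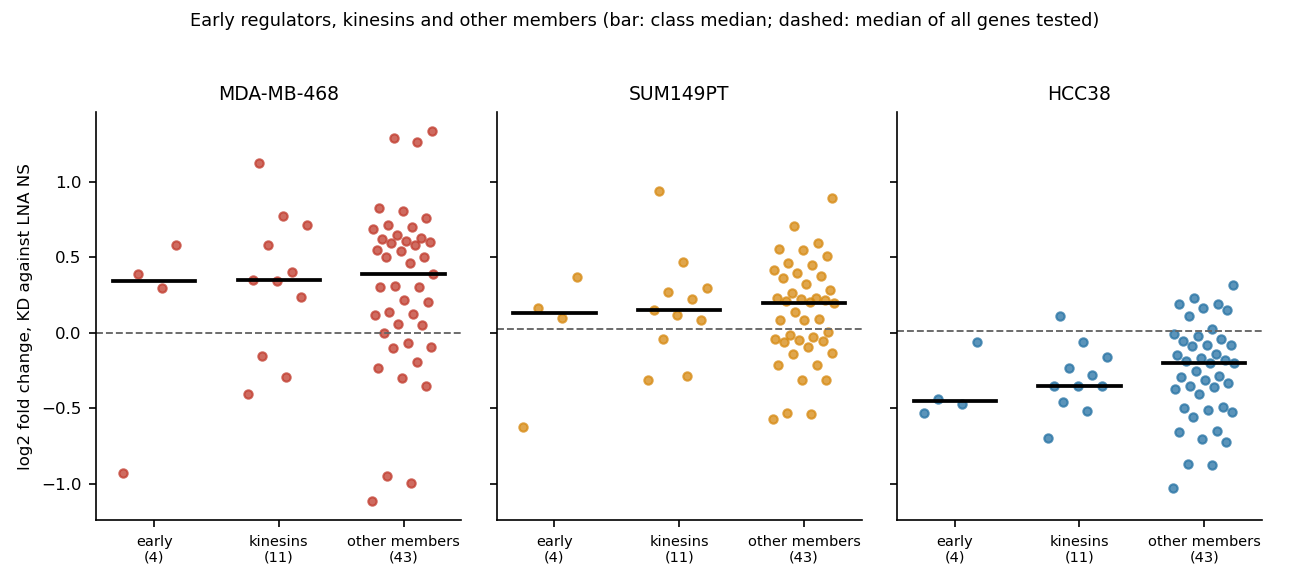
Log2 fold change of each gene in 3 classes (4 early regulators, 11 kinesins, 43 other members) in each line, with the class median as a bar and the median of all genes tested as a dashed line. The 3 classes overlap in every line, with medians of 0.34, 0.35 and 0.39 in MDA-MB-468 and of -0.45, -0.35 and -0.20 in HCC38.

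Before knock-down the lines already differed in these genes. Per length (CPM per kb of exon, LNA NS libraries, mean ± SD, n = 2), CDC20 was highest on average over the lines, at 217 ± 4.87, 309.8 ± 12.3 and 237 ± 2.27 (MDA-MB-468, SUM149PT, HCC38). UBE2C had 141 ± 3.63, 251 ± 26.4 and 287 ± 15.7, and MYBL2 134 ± 2.95, 174 ± 3.74 and 269.9 ± 3.86. The lowest were KIF15 at 3.71 ± 0.0902, 3.77 ± 0.432 and 6.20 ± 0.243, CDC25C at 4.93 ± 0.793, 2.76 ± 0.200 and 7.46 ± 0.640, and KIF18A at 8.33 ± 0.398, 5.79 ± 0.328 and 3.45 ± 0.751. CDC20 stood above UBE2C in MDA-MB-468 and SUM149PT and below it in HCC38, and CDC25C above KIF15 in MDA-MB-468 and HCC38 and below it in SUM149PT, each by more than their SDs together.

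Between LNA NS groups, 41 of the 58 genes were higher and 9 lower in HCC38 than in MDA-MB-468, against 37.7% and 33.7% of all genes. SUM149PT had 32 higher and 12 lower than MDA-MB-468 (33.2% and 35.3% of all genes), and HCC38 had 26 higher and 15 lower than SUM149PT (38.0% and 31.6%). These comparisons share control libraries with each other and with the knock-down changes. CKAP2 and TPX2 were the members most in excess in HCC38 over MDA-MB-468, with log2 differences of 1.63 and 1.63, and KIF18A (-1.27) and TTK (-0.93) the furthest below. SUM149PT had more CDCA3, AURKB and FOXM1 than MDA-MB-468, by 2.14, 2.10 and 1.75. CDK1 was higher in HCC38 than in both other lines, by 1.39 over MDA-MB-468 and 1.53 over SUM149PT, and after knock-down it was still at 212 and 214 CPM there, above every library of the other lines.

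Another 119 genes of mitosis were on 5 lists, and their difference from the 58 was not tested. Of them 42 rose and 47 fell in MDA-MB-468 (24.9% and 25.7% of all genes), 27 and 35 in SUM149PT (20.0% and 18.0%), and 4 and 67 in HCC38 (15.5% and 18.4%), with medians of -0.04, -0.02 and -0.35. Among 31 other kinetochore and checkpoint genes, 7 rose and 17 fell on average over the lines, where 28.4% and 26.5% of all genes did. Of 20 cohesin and condensin genes, 10 rose and 9 fell in MDA-MB-468, and 15 fell in HCC38 with no rise. The anaphase-promoting complex (17 genes) had 5 rises and 7 falls on average, spindle and midbody genes (30) had 9 and 16, and regulators of MuvB and CDKs (21) had 6 and 9.

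The largest falls on these lists were shared by the lines. MAD1L1 was at 70.3 and 71.5 CPM in MDA-MB-468 given LNA NS and at 10.7 and 8.24 CPM after knock-down, at 31.9 and 32.6 against 9.89 and 10.8 CPM in SUM149PT, and at 53.0 and 53.7 against 15.7 and 17.2 CPM in HCC38. MAD1L1, the partner that recruits MAD2 to kinetochores, was lower in every KD library, with no overlap. MAD1L1 had log2 fold changes of -2.91 for MDA-MB-468 (SE 0.124, adjusted p = 2.5e-10), -1.65 for SUM149PT (SE 0.121, adjusted p = 1.5e-07) and -1.70 for HCC38 (SE 0.117, adjusted p = 8.4e-08). NCAPG2 was at 80.3 and 86.5 CPM in MDA-MB-468 given LNA NS and at 13.9 and 12.6 CPM after knock-down, at 166 and 148 against 57.5 and 45.4 CPM in SUM149PT, and at 105 and 102.5 against 29.2 and 26.2 CPM in HCC38. NCAPG2, a condensin II subunit, likewise fell in each line (-2.66, -1.61 and -1.90), as did PDS5B of cohesin (-1.80, -1.61 and -1.57). TFDP1 was at 323.5 and 373 CPM in MDA-MB-468 given LNA NS and at 80.7 and 84.3 CPM after knock-down, at 371 and 355 against 134 and 128 CPM in SUM149PT, and at 190.4 and 194 against 130.3 and 124 CPM in HCC38. TFDP1, the partner through which E2F factors bind DNA, fell in each line (-2.08, -1.47 and -0.60), with an adjusted interaction p of 8.8e-06. CENPK and ZWILCH of the kinetochore had -1.66, -1.03 and -0.69, and -1.23, -0.75 and -1.19.

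Smaller changes were found for the other genes named by the rule. CCNF (-0.51 on average), PKMYT1, the kinase that inhibits CDK1 (-0.51), RBL2, the pocket protein p130 of the repressive complex (-0.67), TRIP13 (-0.60), NCAPH2 (-0.85), MELK (-0.80), KNSTRN (-0.69), PSRC1 (-0.47) and HAUS4 (-0.90) fell on average. Of the anaphase-promoting complex, ANAPC5 (-0.43) and the activator FZR1 (-0.38) fell, and CDC23 (0.46) and CDC16 (0.31) rose. CDCA5 (sororin), which protects cohesin, had 0.80, 0.47 and -0.12, in the order seen for most of the 58. CDKN1A, the CDK inhibitor p21, had log2 fold changes of -0.66, -0.06 and 0.11, of which only the fall in MDA-MB-468 was called.

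Gene length varied widely among the 58. Their spans ran from 4223 to 130783 bases with a median of 30752, against 21770.0 over 20686 tested genes with a position. In MDA-MB-468, 11 of the 16 members over 60000 bases rose and 2 fell, whereas of all 5324 tested genes of that length 882 rose and 2276 fell. In HCC38, 9 of these 16 fell and none rose, and the whole class had 450 rises and 1956 falls. Members of up to 20000 bases gave 12 rises and 2 falls of 19 in MDA-MB-468 and 2 rises and 10 falls in HCC38. All 9964 tested genes of that length had 2587 rises and 1635 falls in MDA-MB-468 and 1849 rises and 763 falls in HCC38. MAD1L1 (417450 bases), PDS5B (191569) and NCAPG2 (73635) were long. Each of the 3 still fell in every line, past the threshold, with the gene length trend removed. Of the 58, 25 overlap another tested gene and 7 of these on the same strand, and whether the counting used strand was not stated.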

How the data were processed

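Poly-A RNA was sequenced as 12 libraries made with a strand-specific kit, and the authors deposited 1 table of raw read counts per gene (Ensembl identifiers) for each library. The study's methods name STAR on GRCh37 (hg19), whereas the submitters' processing notes list TopHat2 2.0.13 with HTSeq 0.6.0, and the annotation release was not given in the sources used here. Lines of the counter that name no gene held 40.8 to 53.7% of each table's total and were left out. Identifiers of 55665 genes matched names and positions in a GENCODE annotation on GRCh37, and genes without a match held 0.636% of the counts. Promoter windows came from RefSeq.

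Genes were filtered with edgeR 4.0.16 (at least 10 counts, 15 in total), scaled by TMM and fitted with its quasi-likelihood test over 6 groups (line and treatment) with 6 residual degrees of freedom. Adjusted p is Benjamini-Hochberg over all 21325 genes, and the threshold was 0.1. The code was tested on simulated data. Alternatives used DESeq2 1.42.0, other scalings and filters, single-line fits, a replicate block and removal of the gene length trend. No 2 replicates agreed within sampling noise.

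The genes, lists and classes were chosen with earlier results of these data known. Values in every library were given for CCNA2, CDK1, FOXM1, MYBL2, CCNB1 and MKI67, for the largest called changes on average (6 each way) and in each line (3 each way), for the 4 smallest interaction p and for the 3 highest and 3 lowest baseline levels. Of each other list the 4 genes with the smallest p on average were named, with CDKN1A and TFDP1. Any other gene was named after its values were seen. Standard errors cover counting error and the spread between libraries together.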

Additional observations from a re-analysis of the deposited data

Results flagged for a closer look

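The knock-down change differed between the 3 lines for 45 of the 58 mitotic genes by the interaction test of edgeR's quasi-likelihood fit. For 18 of them the calls in MDA-MB-468 (rise) and HCC38 (fall) were opposite, and the adjusted interaction p values are given here. Among cyclins and kinases they were 0.00053 for CCNA2, 0.00025 for CCNB1, 0.0056 for CDK1, 0.0017 for PLK1 and 0.00035 for BUB1. Kinetochore and centromere genes had 0.0046 (CENPE) and 0.0011 (HJURP). The kinesins had 0.018 (KIF11), 0.00024 (KIF14), 0.011 (KIF15), 0.00026 (KIF20A), 0.001 (KIF20B) and 0.00037 (KIF23). Spindle and chromosome proteins had 0.0017 (TPX2), 0.00046 (DLGAP5), 3.9e-05 (CKAP2), 0.0027 (TOP2A) and 0.0026 (NCAPG). In each of the 18 genes both KD libraries lay above both LNA NS libraries in MDA-MB-468 and below them in HCC38. Of all genes tested, 35.3% lay above in this way in MDA-MB-468 and 30.9% below in HCC38. The 18 were picked by their calls in the same fit, so this separation and their small interaction p values follow largely from that choice.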

How the results depend on the processing

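No called value turned direction under any alternative run. Values near 0 that were not called did so under some, such as CCNA2 in SUM149PT (-0.01 to 0.19 with each library left out in turn) and MKI67 in HCC38 (-0.10 to 0.45). The counts of genes called, which the main setting put at the values in parentheses, moved by more than 1.5 times as follows, and the cause was not tested. Upper-quartile scaling gave 5 falls in MDA-MB-468 (8), 7 rises in HCC38 (2), 10 falls on average (17), 11 genes with opposite calls (18), 1 higher and 21 lower changes in SUM149PT than in MDA-MB-468 (2 and 13), 7 lower baselines there (12) and 2 higher changes in HCC38 than in SUM149PT (1). For rises in HCC38, no filter on low counts gave 1, at least 10 counts in every library 5 and single-line fits 1. For the change in SUM149PT against MDA-MB-468, DESeq2 size factors, no filter and the length trend each gave 1 higher, and at least 10 counts, the DESeq2 test and the length trend gave 20, 21 and 21 lower. For higher changes in HCC38 than in SUM149PT, DESeq2 size factors, at least 10 counts and the DESeq2 test gave 2 and no filter 0. On the given strand alone, CCAAT was in 40.3% of member windows against 19.6% of all windows, a CHR in 59.7% against 9.7%, and an E2F motif in 6.45% against 1.8%. Over genes, differences between the LNA NS replicates correlated with those between the KD replicates at -0.0052, 0.0971 and -0.118 (MDA-MB-468, SUM149PT, HCC38). These values gave no sign that equal numbers mark a pair, but they cannot show that the libraries were unpaired. With the replicate block, 34 rose and 9 fell in MDA-MB-468, 19 and 7 in SUM149PT and 1 and 29 in HCC38, with 1 higher change in SUM149PT than in MDA-MB-468, 7 lower baselines there and 0 higher changes in HCC38 than in SUM149PT. The crossed pairing of the HCC38 block, chosen after seeing the data, gave 3 rises and 33 falls there, 4 higher changes in SUM149PT than in MDA-MB-468 and 2 in HCC38 than in SUM149PT. With each library left out in turn, rises and falls numbered 30 to 37 and 6 to 9 in MDA-MB-468, 11 to 23 and 5 to 9 in SUM149PT, 0 to 2 and 20 to 32 in HCC38, and 21 to 24 and 15 to 17 on average. Higher and lower changes numbered 1 to 2 and 4 to 15 for SUM149PT against MDA-MB-468, 3 to 4 and 34 to 40 for HCC38 against MDA-MB-468, and 0 to 1 and 14 to 30 for HCC38 against SUM149PT. Opposite calls numbered 8 to 19, shared rises 11 to 22, the ordered genes 35 to 47 and interaction calls 38 to 45. Of the named values under alternatives that kept all libraries, 1488 kept their side of the threshold, 30 lost the call and 22 gained one.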
